A study of Mus musculus with 15 samples.

Results

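In resting macrophages, the RNA contacts of wild-type tristetraprolin (TTP, encoded by Zfp36) were set against those of TTP-AA, the mutant whose MK2-phosphorylated serines are replaced by alanine. The members were all crosslink sites in the 2 pooled iCLIP lists made without LPS, 15994 sites for GFP-TTP and 16353 for GFP-TTP-AA, which is 32347 of the 162273 sites in the 6 lists of the series. Each list summed 2 of the 15 samples, labelled replicates 1 and 2. No value for a single library was available, so no test was made. Every interval below is a 95% interval for counting error only. It treats each cDNA or site as independent, although many sites are neighbours in the same RNA, and can therefore be too narrow. The cells were TTP-deficient bone marrow-derived macrophages of C57BL/6 mice, immortalised with the oncogenes hcmyc and hRasG12V and transduced with a tet-inducible vector for GFP-TTP or GFP-TTP-AA. Both groups received doxycycline (1 µg/ml) for 6 h and no LPS, were irradiated with 300 mJ/cm2 of UV-C light and were precipitated with a GFP nanobody. The cells were 1 immortalised line per protein with an induced transgene in place of the endogenous gene, and the methods describe the libraries of a list as independent experiments.

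TTP is a zinc-finger protein that binds AU-rich elements, typically AUUUA pentamers, in the 3′UTRs of cytokine and growth control mRNAs and recruits the deadenylation machinery. In macrophages it is best known for holding down Tnf. MK2, a kinase downstream of p38, phosphorylates TTP after LPS, which in the accepted model stabilises the protein and weakens its action on mRNA, whereas TTP-AA cannot be phosphorylated at these residues. iCLIP maps the nucleotide at which UV light joined a protein to RNA, and the number of unique cDNAs at a site counts the recovered events. A larger number of cDNAs can come from more binding per RNA molecule or from more of that RNA in the cell, and these cannot be told apart here.

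The following stretches show the kinds of RNA on which the comparison turns. Each is 29 nt of transcript (mm10, from the transcript sequences of the annotation) centred on the site with most cDNAs in the region named. This is the top site of the TTP list for Mdm2, Tnf and Ccl3. For Actb, Hist1h4a, Rny1 and Rny3 it is that of the TTP-AA list, and for Pfn1 and Hist1h4d that of both lists. In the mRNA stretches capitals mark AUUUA, in the Y RNA stretches they mark the crosslinked nucleotide, and in the histone hairpin of 28 nt they mark the paired bases of the stem. Mdm2, Pfn1, Hist1h4d, Hist1h4a and Actb are shown because they led a list. Tnf, Ccl3 and the Y RNAs were added after their values were seen.
Mdm2 3′UTR, chr10:117689747-117689775, minus strand: uuguauAUUUAaguuauugaaauucugaa
Tnf 3′UTR, chr17:35199650-35199678, minus strand: uuugcuuaugaauguAUUUAuuuggaagg
Ccl3 3′UTR, chr11:83648002-83648030, minus strand: uauuugugacuAUUUAuucugaaagacuu
Actb 3′UTR, chr5:142903269-142903297, minus strand: cuucauuuuuguuuuuaauuucugaaugg
Pfn1 3′UTR, chr11:70651876-70651904, minus strand: guuuuuuggucuuuuuuuuuuuuuuuuuu
Hist1h4d 3′UTR, chr13:23581907-23581935, plus strand: cggcuaaacguacucAUUUAuuuuucuuc
Hist1h4d 3′ hairpin, chr13:23581944-23581971, plus strand: accaaaGGCCCUuuucAGGGCCacuacc
Hist1h4a 3′UTR, chr13:23760811-23760839, minus strand: uuuaauuuguauuuucuaaccaaaggccc
Rny1 exon, chr6:47788083-47788111, minus strand: uacacuuuccccccUucucacuacugcac
Rny3 exon, chr6:47781668-47781696, plus strand: caguuacagauuucUuuguuccuucuccg
The Actb stretch also occurs in a transcript of Lrrc58, whereas the other stretches were found in transcripts of 1 gene only.

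The lists were close in depth. The TTP list held 33587 cDNAs and the TTP-AA list 32617, and 66.9% and 68.5% of their sites carried a single cDNA. A ribosomal RNA-like locus on chromosome 17 (chr17:39843013-39848788) took 14.7% of all cDNAs for TTP and 11.2% for TTP-AA. Of 13 macrophage marker genes, Lyz2 (lysozyme) had 8 cDNAs for TTP and 0 for TTP-AA, and the other 12 had no listed site in either. None of the 22 markers of other cell types had a site in either list, so the lists do not carry enough marker signal to check the cell type. Zfp36 itself carried 4 cDNAs in its 3′UTR and 5 in its coding sequence in the TTP list, and none in the TTP-AA list. The transgenes contain the coding sequence alone.

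In percentage points, the 3′UTR was the region in which the proteins differed most. TTP-AA placed 18.4% of its cDNAs (17.98 to 18.8, Wilson) in 3′UTRs and TTP 13.0% (12.6 to 13.4), a difference of 5.40 percentage points (Newcombe interval 4.85 to 5.96) and a ratio of 1.42 (exact interval 1.36 to 1.47). In numbers, 6002 TTP-AA cDNAs lay at 4333 sites in 893 genes and 4366 TTP cDNAs at 3356 sites in 737 genes. The 5′UTR share was also higher for TTP-AA, at 0.509% against 0.319%, a ratio of 1.60 (1.25 to 2.06), an interval that includes that of the 3′UTR. A single gene, Pabpc1, held 79 of the 166 TTP-AA and 26 of the 107 TTP cDNAs in 5′UTRs. The 5′UTR ratio was not computed without it, so a shift across 5′UTRs is not shown. The coding sequence (CDS) share was slightly lower, at 0.601% against 0.741%. Introns held 15.2% of all cDNAs for TTP-AA and 16.9% for TTP, and intergenic positions 38.03% and 39.2%. Positions antisense to a gene held 3.39% and 3.44%, a difference of -0.054 points whose interval ran from -0.331 to 0.223. Exons of non-coding genes, which include the chromosome 17 locus, held 23.9% against 26.4%. Without that locus the difference for non-coding exons changed sign, from -2.47 to 0.233 points (-0.359 to 0.824).

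**Figure D1:**
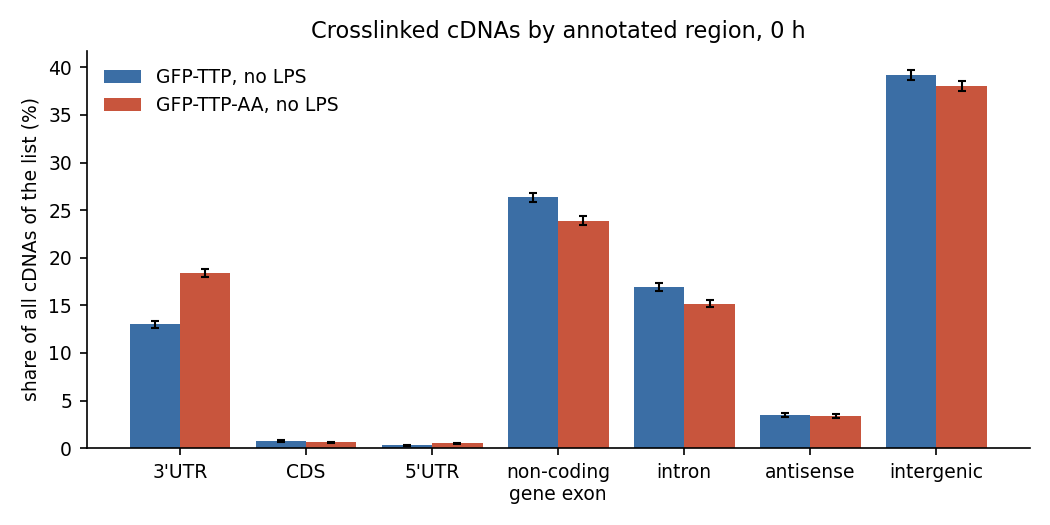
Share of all cDNAs of a list (y axis, %) in each annotated region (x axis) for GFP-TTP and GFP-TTP-AA without LPS, with Wilson 95% intervals as bars on the columns. The 3′UTR column stands at 13.0% for TTP and 18.4% for TTP-AA.

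Per gene, the share of all cDNAs of a list was compared for genes with at least 10 3′UTR cDNAs over both lists, and a gene was called at a ratio of 2 or more in either direction, with counts under 3 set to 3. Of 241 such genes, 86 (35.7%) had a higher share for TTP-AA, 37 (15.4%) a lower share, and 118 stayed within 2-fold. In 31 of the 86 genes the TTP list had no cDNA, and in 13 of the 37 the TTP-AA list had none. Such genes reached the minimum through 1 list alone and had to be called. The exact interval of the ratio lay above 1 for 63 genes and below 1 for 23. The median log2 ratio over the 241 genes was 0.46. When each gene was instead expressed as a share of the 3′UTR cDNAs, the median moved by -0.50 to -0.04 on the log2 scale and the calls split into 63 higher (26.1%) and 61 lower (25.3%). The excess of genes with a higher share was thus seen for shares of all cDNAs only. This change of scale moves every gene by the same amount, so it cannot show what carried the excess.

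**Figure D2:**
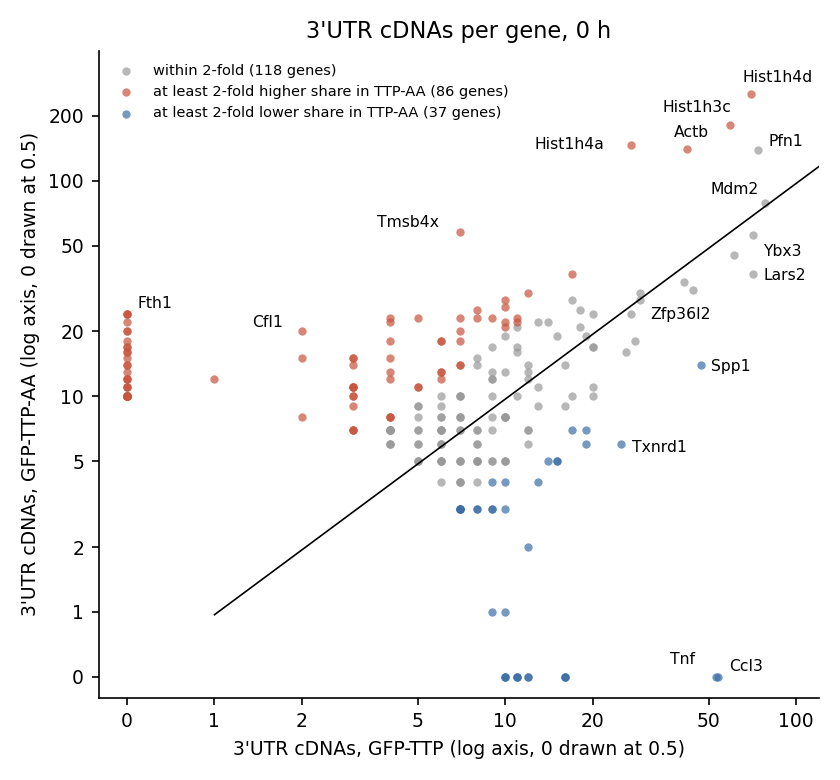
3′UTR cDNAs of each of the 241 genes in the GFP-TTP list (x axis) and the GFP-TTP-AA list (y axis), both on log axes with 0 drawn at 0.5, where the line marks an equal share of all cDNAs. Tnf and Ccl3 sit at 53 and 54 TTP cDNAs with 0 for TTP-AA, while Hist1h4d reaches 251 for TTP-AA against 70.

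Inflammatory mediators leaned to TTP. Of 32 cytokine and chemokine genes, 9 had a 3′UTR site for TTP and 2 for TTP-AA, with 189 cDNAs against 27 (ratio 0.147, 0.0945 to 0.221). Of the 5 members with enough cDNAs, 4 had a lower share for TTP-AA and 1 a higher share, and their median log2 ratio was -1.83. Over all 241 genes tested, 15.4% had a lower and 35.7% a higher share, with a median of 0.46. Ccl3, Tnf and Gdf15 had no TTP-AA cDNA, reached the minimum through the TTP list alone and had to be called. The median of -1.83 is the value of Gdf15, with its TTP-AA count set to 3. Ccl3, the chemokine MIP-1α, had 54 cDNAs at 25 sites for TTP and no listed site for TTP-AA. Tnf had 53 cDNAs at 32 sites for TTP and no listed site for TTP-AA. Most of these cDNAs lay in or near the AU-rich elements. In Tnf, 44 of the 53 were within 20 nt of an AUUUA, and 52 fell in the stretch from nucleotide 401 to 655 of the 764 nt 3′UTR (chr17:35199381-35200144), which spans its 8 AUUUA copies and 20 nt on each side and takes up 33.4% of the 3′UTR. In Ccl3, all 54 fell between nucleotides 139 and 258 of 409 nt (chr11:83647844-83648252), around 5 AUUUA copies, a stretch of 29.3% of the 3′UTR.

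Spp1, which encodes the secreted adhesion protein osteopontin, had 47 TTP and 14 TTP-AA cDNAs (0.307, 0.156 to 0.567), none of them within 20 nt of an AUUUA. Gdf15, a stress-induced cytokine of the TGF-β family, had 11 and 0. The chemokine Ccl9 was the member with the opposite direction, with 6 and 13 cDNAs, an exact interval that reached 0.791, and a ratio within 2-fold when taken of 3′UTR cDNAs. Below the minimum, Ccl4 had 7 and 0, Csf1 5 and 0, Cxcl2 4 and 0, and Ccl2 2 and 0 cDNAs. Among 22 inhibitors and feedback genes of NF-κB, Nfkbia (IκBα) had 15 and 5 cDNAs (0.343), Ier3 6 and 0, and Tnfaip3 (A20) 4 and 0, and the group held 25 against 5. For 16 genes of the p38 pathway and its phosphatases, 3 and 7 cDNAs were listed and no member reached the minimum. The 22 immediate early genes held 16 and 14, and Ier5, the 1 member with enough cDNAs, had 5 and 9.

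The 3′UTRs of p53 targets and of RNA-binding regulators had similar summed cDNA numbers in both lists, and among the members tested Gdf15 and Ybx1 were called. Mdm2, the ubiquitin ligase that restrains p53, led the TTP list with 78 cDNAs at 51 sites and had 79 at 50 sites for TTP-AA (1.04, 0.753 to 1.44). An AUUUA lay within 20 nt of 68 of the 78 and 65 of the 79, and all cDNAs of both lists lay between the outermost AUUUA copies of its 1335 nt 3′UTR or within 20 nt of them, a stretch that takes up 89.7% of this 3′UTR. Cdkn1a (p21) had 41 and 34 cDNAs, Bax 13 and 9, and Ccng1 (cyclin G1) 8 and 6. Of 5 p53 targets with enough cDNAs, Gdf15 was called, and the list held 151 and 133 cDNAs (0.907, 0.713 to 1.15). Zfp36l2, the TTP paralogue, had 29 and 28 cDNAs (0.994, 0.570 to 1.73). Ybx3, a cold-shock domain mRNA-binding protein, had 71 and 56 (0.812), and its relative Ybx1 was called with 9 and 4 cDNAs (0.458), at the edge of the 2-fold rule. The list of 22 RNA-binding regulators held 132 and 116 cDNAs (0.905, 0.699 to 1.17), with 1 of 4 tested members called. Over all 241 genes tested, 35.7% were called higher and 15.4% lower for TTP-AA. Below the minimum, Rc3h2 (a roquin) had 0 and 6 and Tial1 0 and 5 3′UTR cDNAs. Because these ratios are shares of all cDNAs, they were lower when taken of 3′UTR cDNAs, where the log2 ratio of Mdm2 was -0.44.

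Actin cytoskeleton mRNAs leaned to TTP-AA. The 28 genes of this list held 155 TTP and 459 TTP-AA cDNAs (3.05, 2.54 to 3.68). Of 8 members with enough cDNAs, 7 had a higher share for TTP-AA and 0 a lower one, against 35.7% and 15.4% of all 241 genes tested. Their median log2 ratio was 1.78 against 0.46 over all genes tested. Of the 7, Cap1 had no TTP cDNA, reached the minimum through the TTP-AA list alone and had to be called. With each site counted once, 4 of the 7 were called. Actb (β-actin) had 42 cDNAs at 31 sites for TTP and 140 at 68 sites for TTP-AA (3.43, 2.42 to 4.97), with no cDNA of either protein near an AUUUA. All 31 TTP sites in Actb had a TTP-AA site within 15 nt, whereas 43 of the 68 TTP-AA sites had a TTP site within that distance.

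Tmsb4x, which encodes the actin monomer-binding peptide thymosin β4, had the largest ratio under the rule among the 241 genes tested in the 3′UTR, with 7 cDNAs for TTP and 58 for TTP-AA (8.53, 3.89 to 22.2). Cfl1 (cofilin, which severs filaments) had 2 and 20. The 2 TTP cDNAs lay 1216 and 1217 nt after the stop codon, and the TTP-AA sites lay between 284 and 297 nt after it. Actr2, a subunit of the Arp2/3 complex, had 4 and 23 cDNAs (5.92, 2.02 to 23.6), Cap1 0 and 10, Lcp1 (plastin) 7 and 18, and Myl12a (a myosin light chain) 17 and 37. Lcp1 and Myl12a were within 2-fold when taken of 3′UTR cDNAs. Pfn1 (profilin), with 74 and 139 cDNAs (1.93, 1.45 to 2.60), fell just short of the rule, and its sites were confined in both lists to nucleotides 220 to 249 of its 3′UTR, the uridine tract printed above.

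Replication-dependent histone mRNAs, which end in a stem-loop instead of a poly(A) tail, held 164 cDNAs in 4 genes for TTP and 683 in 15 genes for TTP-AA (4.29, 3.61 to 5.12). This was 3.76% of all 3′UTR cDNAs for TTP and 11.4% for TTP-AA. All 6 histone genes with enough cDNAs had a higher share for TTP-AA, against 35.7% of all 241 genes tested. Hist1h4b and Hist2h2ac had no TTP cDNA, reached the minimum through the TTP-AA list alone and had to be called. Hist1h4d had 70 and 251 cDNAs (3.69, 2.82 to 4.88), Hist1h3c 59 and 182 (3.18, 2.36 to 4.34), and Hist1h4a 27 and 146 (5.57, 3.67 to 8.74). Hist1h4j had 8 and 23, whereas Hist1h4b with 24 and Hist2h2ac with 12 TTP-AA cDNAs had none for TTP. By family, H4 genes held 105 and 462 cDNAs, H3 genes 59 and 192, H2A genes 0 and 24, and H2B genes 0 and 5. Histone genes are near-identical in sequence, so the assignment to single genes is uncertain.

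The histone contacts sat in a narrow place. All 164 TTP and 683 TTP-AA cDNAs lay upstream of the 3′ hairpin and none within it, at a median of 15.5 and 16 nt before its first base. In Hist1h4d and Hist1h3c at least 98.8% of the cDNAs of each list were within 20 nt of an AUUUA, whereas in Hist1h4a none were. All TTP sites in these 3 genes had a TTP-AA site within 15 nt. The excess of TTP-AA lay in cDNAs per site more than in the number of sites, which was 20 and 28 in Hist1h4d, 14 and 18 in Hist1h3c, and 12 and 19 in Hist1h4a. With each site counted once, 2 histone genes were called instead of 6.

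Other groups showed smaller or mixed differences. The list of 22 lysosomal and secreted macrophage proteins held 79 and 111 cDNAs (1.45, 1.07 to 1.96). This ratio was close to that of the 3′UTR as a whole (1.42, 1.36 to 1.47). Of 8 tested members, 2 had a higher and 1 a lower share for TTP-AA, against 35.7% and 15.4% of all 241 genes tested. The called members, Fth1, Ctsb and Lamp2, each had 3′UTR cDNAs in 1 list alone and had to be called. Fth1, the heavy chain of the iron store ferritin, had 0 and 24 3′UTR cDNAs, although its coding sequence held 14 and 11. The protease Ctsb (cathepsin B) had 0 and 17, whereas Lamp2, a lysosomal membrane protein, had 16 and 0. Plau (urokinase) had 20 and 17, Lpl (lipoprotein lipase) 12 and 14, and Lgmn (legumain) 11 and 17. Cell cycle genes held 32 and 37 cDNAs, with Rrm2 (ribonucleotide reductase) at 11 and 21 and Cdk1 at 10 and 8, both within 2-fold. The 94 nuclear-encoded respiratory chain genes held 20 and 53 cDNAs (2.73, 1.60 to 4.82), of which Cox7a2 took 9 and 23 and was the 1 member tested. The 85 cytosolic ribosomal protein genes held 8 and 12, with Rpl39 at 4 and 6. The 13 mitochondrially encoded protein genes had no 3′UTR site and 3 and 10 cDNAs in all.

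Outside the lists, the genes with the largest ratios for TTP-AA were mostly absent from the TTP list. Mgst3, a glutathione transferase, had 0 and 24 cDNAs, Atad2, a chromatin ATPase, 0 and 22, Anxa5 (annexin A5) 0 and 20, Nap1l1, a nucleosome assembly protein, 0 and 20, and Ldha (lactate dehydrogenase) 0 and 18. In the opposite direction, Mtpn (myotrophin) had 16 and 0 cDNAs, and Atp6ap1, a proton pump accessory protein, and Azin1, the antizyme inhibitor, each had 12 and 0. Birc6, an inhibitor of apoptosis family member, had 11 and 0, and Cct2, a chaperonin subunit, 12 and 2. Txnrd1 (thioredoxin reductase) had 25 and 6 (0.247, 0.0829 to 0.617). Lars2, which encodes mitochondrial leucyl-tRNA synthetase, had 71 and 37 cDNAs (0.537, 0.351 to 0.809) and stayed within the rule, but passed 2-fold when taken of 3′UTR cDNAs (log2 ratio -1.40). Rnf225 had 61 and 45 cDNAs, all between nucleotides 1899 and 1911 of its 3′UTR, where 1 position held 30 and 25 of them, and all of these also lay at an annotated small RNA gene.

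The 27 genes that the study listed as targets at 1 h of LPS were chosen on samples of this series and are no independent set. Of these, 21 had a 3′UTR site for TTP and 13 for TTP-AA without LPS, with 652 and 614 cDNAs (0.970, 0.867 to 1.08). Of 16 with enough cDNAs, 2 (Actb and Tmsb4x) had a higher share for TTP-AA and 5 (Ccl3, Gdf15, Nfkbia, Spp1 and Tnf) a lower share. Over all 241 genes tested, 35.7% had a higher and 15.4% a lower share. Ccl3, Gdf15 and Tnf had no TTP-AA cDNA and had to be called. B2m, the light chain of MHC class I, had 26 and 16 cDNAs and stayed within 2-fold, but passed it when taken of 3′UTR cDNAs (log2 ratio -1.16).

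The target lists overlapped in part. The 332 genes with a site in both lists were 45.0% of the 737 TTP genes and 37.2% of the 893 TTP-AA genes. Among genes with at least 10 cDNAs in a list, 84.9% of 86 TTP genes and 75.4% of 126 TTP-AA genes had a site in the other list. The 405 genes listed for TTP alone held 36.5% of its 3′UTR cDNAs, and the 561 genes listed for TTP-AA alone held 39.1%. The lists named few genes with many cDNAs, and the median was 4 cDNAs per gene in both.

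At the level of nucleotides, 41.5% of the TTP 3′UTR sites (39.9 to 43.2) had a TTP-AA site within 15 nt, where 4.93% of all positions of the same 3′UTRs did. In the other direction 36.5% of the TTP-AA sites (35.1 to 37.96) had a TTP site within 15 nt, against 4.27% of positions. Within the 3′UTRs that had sites in both lists, the shares were 69.9% and 69.0%, against 8.29% and 8.07% of positions. Both proteins crosslinked mainly at uridine, at 63.3% of TTP and 64.0% of TTP-AA sites, where uridine made up 31.3% and 30.8% of the positions.

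The sequence around the sites differed between the proteins. An AUUUA lay wholly within 20 nt of 45.7% of sites for TTP (44.1 to 47.4) and 33.7% for TTP-AA (32.3 to 35.2), a difference of -12.0 percentage points (-14.2 to -9.80). The same window around all positions of the bound 3′UTRs held it at 8.80% and 7.29%. The longer UAUUUAU was near 23.4% of TTP and 14.4% of TTP-AA sites, against 2.14% and 1.42% of positions. A run of 5 uridines lay near more TTP-AA sites, at 46.4% against 42.6% (difference 3.73 points, 1.49 to 5.96). Within 10 nt the difference was 1.75 points, with an interval (-0.378 to 3.87) that included 0. Histone 3′UTRs had the opposite direction, at 51.9% for TTP-AA and 92.0% for TTP, and without histones the difference was 4.30 points (2.03 to 6.55). UGUGU lay near 7.18% of TTP-AA and 7.24% of TTP sites, close to its share of positions. These matches are on the transcript strand, and a site can hold several of them. Neighbouring sites in a 3′UTR can share the same motif copy, which the intervals leave out.

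**Figure D3:**
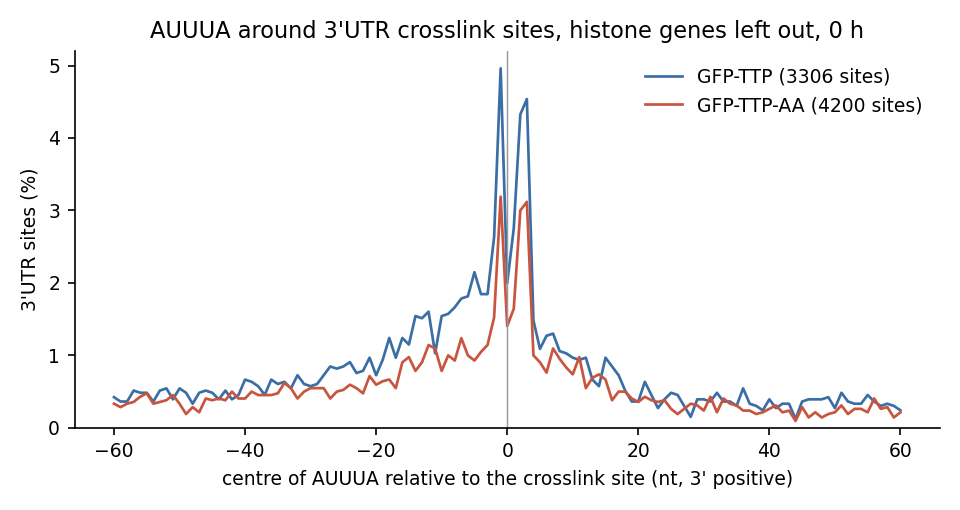
Share of 3′UTR crosslink sites (y axis, %) with an AUUUA centred at each distance from the site (x axis, nt, 3′ positive) for GFP-TTP and GFP-TTP-AA, with histone genes left out. Both curves peak within a few nucleotides of the site, and the TTP curve runs above the TTP-AA curve there.

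The difference in AUUUA was larger in 3′UTRs listed for 1 protein than in those listed for both. In 3′UTRs listed for 1 protein alone, AUUUA accompanied 50.3% of sites for TTP and 29.5% for TTP-AA, a difference of -20.8 points (-24.1 to -17.5). In 3′UTRs listed for both it was near 42.6% and 37.5%, a difference of -5.12 points (-8.05 to -2.18). In histone 3′UTRs, with 50 and 133 sites, it was near 68.0% and 36.1%. TTP-AA sites with a TTP site within 15 nt had AUUUA at 43.0%, and those without such a partner at 28.4% (26.7 to 30.1). For TTP the corresponding shares were 45.8% and 45.7%. Within 3′UTRs listed for both proteins, sites without a partner had AUUUA at 35.3% for TTP (31.6 to 39.2) and 25.3% for TTP-AA (22.2 to 28.6). The 3′UTRs themselves also differed, since 94.1% of the 405 bound by TTP alone contained an AUUUA anywhere, against 83.6% of the 561 bound by TTP-AA alone and 89.8% of the 332 bound by both. They also differed in length, with medians of 1999, 1693 and 1698.5 nt in the same order, and these shares were not adjusted for length. Among the octamers near sites, 23 of the first 25 by excess over positions were shared by the lists. UUUUUUUU ranked 1 in both. UAUUUAUU ranked 2 for TTP, near 15.7% of sites, and 4 for TTP-AA, near 8.47%. With windows of 50 nt UAUUUAUU ranked 1 and UUUUUUUU 2 for TTP, and the ranks for TTP-AA were again 4 and 1.

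TTP-AA sites also lay closer to the annotated ends of 3′UTRs. Each site was placed in the transcript with the longest annotated 3′UTR, so the end used in these cells may differ. The median 3′UTR was 1822 nt over all TTP genes and 1694 nt over all TTP-AA genes. The share at the end was not computed within 3′UTRs bound by both proteins. In 3′UTRs of at least 300 nt, 28.97% of 3976 sites for TTP-AA and 19.4% of 3148 sites for TTP fell in the last 100 nt, a difference of 9.56 points (7.58 to 11.5). The density of sites in the last 100 nt was 9.22 times that of the rest of the 3′UTR for TTP-AA and 5.69 times for TTP, and the median distance to the annotated end was 491 and 646 nt. The polyadenylation hexamer AAUAAA lay within 20 nt of 11.6% of sites for TTP-AA but of 5.78% for TTP (difference 5.78 points, 4.54 to 7.01), where its share of positions was 5.48% and 5.26%. In 3′UTRs bound by both proteins the shares were 9.11% and 6.32%. In the 1000 nt downstream of annotated 3′UTRs, 0.782% of all cDNAs were found for TTP-AA and 0.470% for TTP.

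Beyond mRNA, several but not all of the RNAs made by RNA polymerase III took a larger share of the TTP-AA cDNAs. Y RNAs, the small RNAs of the Ro60 particle, held 613 TTP and 1481 TTP-AA cDNAs (2.49, 2.26 to 2.74). Rny3 had 377 and 949 (2.59, 2.30 to 2.93) and Rny1 236 and 532 (2.32, 1.99 to 2.72). The number of crosslinked positions differed less, at 36 and 44 in Rny3 and 32 and 38 in Rny1, so that with each site counted once the ratio for Y RNAs was 1.18 (0.845 to 1.65). The crosslinked stretches overlapped, and those of TTP-AA reached further at both ends. In Rny1 they ran from nucleotide 57 to 91 for TTP and from 55 to 93 for TTP-AA, and in Rny3 from 41 to 78 for TTP and from 37 to 80 for TTP-AA. At the 5′ ends the added positions held 13 and 9 TTP-AA cDNAs in Rny1 and 10, 3, 25 and 4 in Rny3. At the 3′ ends they held 1 cDNA at nucleotide 93 of Rny1, and 2 and 1 at nucleotides 79 and 80 of Rny3. TTP-AA had more cDNAs on both RNAs, and the ends were not compared at equal numbers of cDNAs. The median cDNA lay at nucleotide 76 of 112 in Rny1 for both and at nucleotides 60 and 63 of 102 in Rny3. The strongest position was nucleotide 76 for TTP and 84 for TTP-AA in Rny1, and nucleotide 72 for TTP and 59 for TTP-AA in Rny3, the last of these in the stretch printed above. Annotated Y RNA pseudogene copies make the counts for single loci uncertain.

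**Figure D4:**
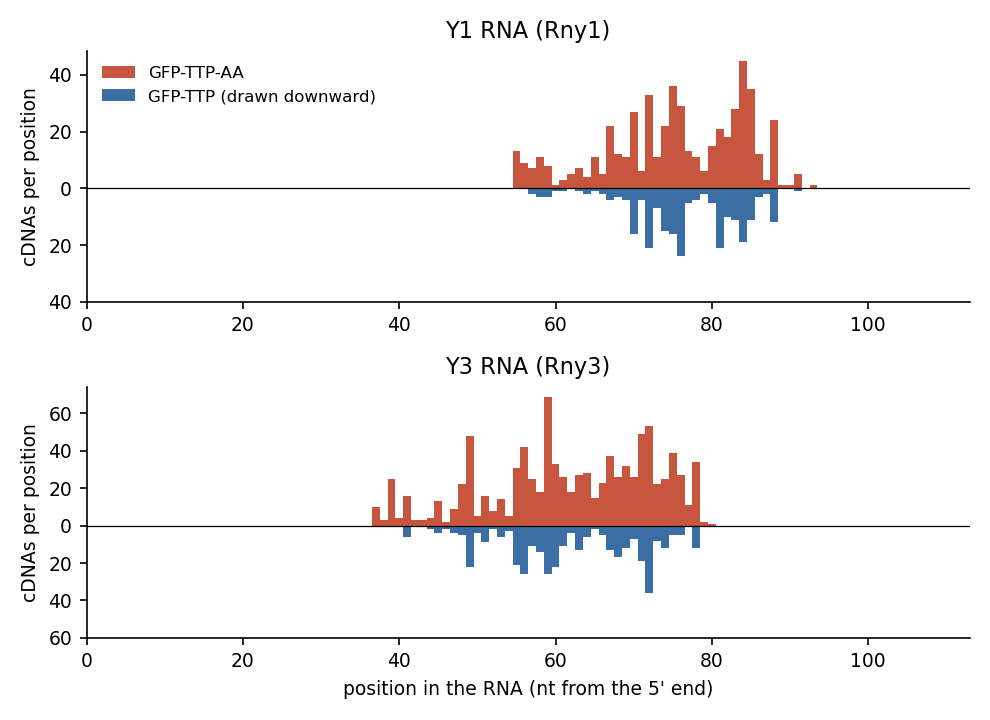
cDNAs at each nucleotide (x axis, counted from the 5′ end) of Rny1 and Rny3, with GFP-TTP-AA drawn upward and GFP-TTP downward. The stretches of contacts overlap. Those of TTP-AA reach further at both ends in each RNA, at the 3′ ends with few cDNAs. The highest TTP-AA position in Rny3 holds 69 cDNAs.

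Rn7sk, the 7SK RNA that holds the elongation factor P-TEFb inactive, had 190 and 358 cDNAs (1.94, 1.62 to 2.33), with 30 at nucleotide 295 in both lists. The vault RNA Vaultrc5 had 33 and 66 (2.06, 1.34 to 3.23) and Rpph1, the RNA of RNase P, 44 and 76 (1.78, 1.21 to 2.64). Rmrp, the RNA of the related RNase MRP, did not show this direction, with 48 and 42 cDNAs (0.901, 0.581 to 1.39). tRNA genes held 2274 and 2307 cDNAs (1.04, 0.985 to 1.11). Among them alanine tRNAs had 456 and 338, leucine tRNAs 248 and 308, serine tRNAs 177 and 236, methionine tRNAs 66 and 104, and glutamine tRNAs 31 and 2. tRNA copies are near-identical, so only the totals by amino acid are given.

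The spliceosomal RNAs went in different directions. U6 genes, also read by RNA polymerase III, held 1742 TTP and 744 TTP-AA cDNAs (0.440, 0.403 to 0.479) at 81 and 55 annotated copies. Of 141 non-coding genes with at least 10 exonic cDNAs, 25 (17.7%) had a higher share for TTP-AA and 48 (34.0%) a lower share, and the 61 U6 copies accounted for 36 of the 48 and for 3 of the 25. The TTP list had no cDNA in 4 of the 25, and the TTP-AA list had none in 13 of the 48. Such genes reached the minimum through 1 list alone and had to be called. They included 10 of the 36 U6 copies with a lower share, and Gm24693 (0 and 11) of the 3 with a higher share. U6 copies are largely pseudogenes of near-identical sequence, and the copy from which a cDNA came is uncertain. The median position was nucleotide 40 for TTP and 52 for TTP-AA of 107. U5 genes held 54 and 135 cDNAs (2.57, 1.86 to 3.60), with 5 of 6 tested copies higher for TTP-AA. Of these 5, Gm22265 (0 and 12) had to be called. U2 genes held 326 and 371 (1.17, 1.01 to 1.36) and U1 genes 46 and 10 (0.224, 0.101 to 0.450).

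Among long non-coding RNAs, the nuclear RNA Malat1 had 3 cDNAs for TTP and 35 at 27 sites for TTP-AA (12.01, 3.79 to 61.1), the largest ratio in this class. snoRNA genes held 129 and 186 cDNAs, of which Gm23262, inside the gene Eif4g2 on the same strand, took 4 and 44. Reads of the host transcript and the snoRNA cannot be separated there. The lower-share genes outside the snRNAs included Mir6236, with 29 and 0 cDNAs, and n-R5s115, a 5S ribosomal RNA copy, with 22 and 0. The chromosome 17 locus had 4952 and 3640 cDNAs (0.757, 0.725 to 0.790) and mitochondrial ribosomal RNA 302 and 250 (0.852, 0.718 to 1.01).

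**Figure D5:**
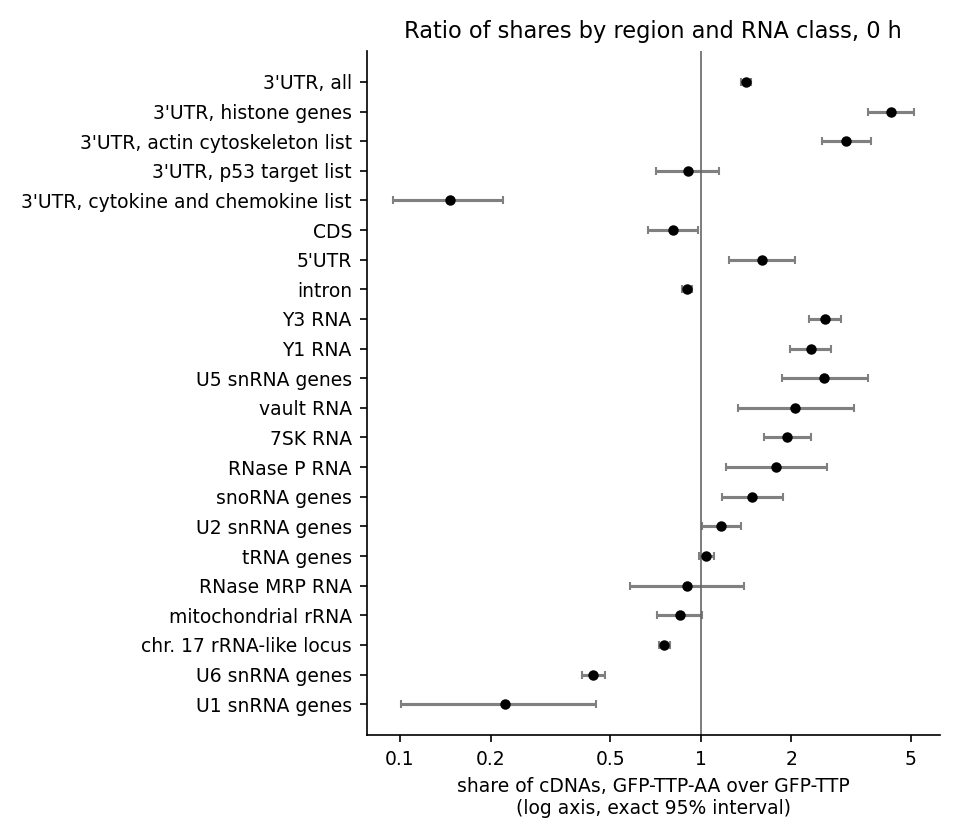
Ratio of the share of all cDNAs, GFP-TTP-AA over GFP-TTP (x axis, log scale), for regions, gene lists and RNA classes (y axis), with exact 95% intervals for counting error as bars. Histone 3′UTRs stand at 4.29 and cytokine and chemokine 3′UTRs at 0.147, on either side of equal shares.

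Coding sequence and 5′UTR contacts were few. Of 7 genes with at least 10 CDS cDNAs, 2 (28.6%) had a higher and 4 (57.1%) a lower share for TTP-AA. Washc1, a subunit of the WASH actin nucleation complex, had 9 and 31 cDNAs (3.55, 1.65 to 8.47), all at 1 nucleotide, and Mapk15, a protein kinase, 4 and 8, also at 1 site in each list. Rspo1 had 14 and 0, Eef1a1, the elongation factor that brings tRNA to the ribosome, 12 and 0, Vsig8 9 and 3, and Gm10801 9 and 1. Rspo1 and Eef1a1 reached the minimum through the TTP list alone and had to be called. The exact intervals of Mapk15 (0.552 to 9.35) and Vsig8 (0.0598 to 1.38) included 1. Of 5 genes with at least 10 5′UTR cDNAs, 2 (40.0%) had a higher share and 0 (0.00%) a lower share. Pabpc1, which encodes the cytoplasmic poly(A)-binding protein, had 26 cDNAs at 21 sites for TTP and 79 at 43 sites for TTP-AA (3.13, 1.99 to 5.08). The site with most cDNAs lay in an A-rich stretch for TTP, with 4 cDNAs, and in another stretch with fewer A for TTP-AA, with 5. Both are shown because this 5′UTR held most 5′UTR cDNAs of the genes tested, were chosen after their values were seen, and carry the crosslinked nucleotide in capitals.
Pabpc1 5′UTR, TTP, chr15:36608835-36608863, minus strand: acccaaaaaaaauuUacaaaaaaauccgc
Pabpc1 5′UTR, TTP-AA, chr15:36608777-36608805, minus strand: uucuuccucuuuuaUaaaauaacccggug
BC005537, an uncharacterised gene, had 5 and 17 5′UTR cDNAs, whereas Grcc10 had 20 and 18 and stayed within 2-fold.

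In introns, 148 genes had at least 10 cDNAs, of which 31 (20.9%) had a higher and 40 (27.0%) a lower share for TTP-AA. The TTP list had no cDNA in 3 of the 31 and the TTP-AA list none in 5 of the 40. These genes, Tmem8, Gm35769 and Cadps among them, had to be called. The largest counts came from single places rather than from whole introns. Pde1c, a phosphodiesterase gene, had 190 and 400 intronic cDNAs (2.17, 1.82 to 2.59), all in 1 bin of 1000 nt and at 8 and 10 sites. Cmss1 had 303 and 230, Cdk8 290 and 243, Gm19951 113 and 46, and Spata5 87 and 23 (0.272, 0.164 to 0.435). The genes with the largest ratios had few cDNAs. Luc7l, a U1-associated splicing protein, had 1 and 14, Tmem8 0 and 14, Foxn3 5 and 22, Wdr26 5 and 21, and Sh3bgrl2 3 and 12, whereas Gm26561 had 36 and 6, Col6a6 20 and 2, Sntg1 15 and 3, Gm35769 14 and 0, and Cadps 13 and 0. Of 456 intergenic bins of 1000 nt with at least 10 cDNAs, 76 (16.7%) had a higher and 87 (19.1%) a lower share for TTP-AA.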

How the data were processed

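iCLIP was measured in 2 GFP-TTP and 2 GFP-TTP-AA samples without LPS. Each deposited list gives a score per site: per the file headers, the authors wrote the whole number of unique cDNAs with the strand as sign. According to the methods, the authors collapsed PCR duplicates with 4 random barcode bases, mapped unique reads to mm10 with Bowtie (version not given in the sources used here) and Ensembl 75, added up both libraries of each protein and retained sites at a false-discovery rate of 0.05 (iCount, 100 permutations, 15 nt). A 0 therefore means no listed site. Counting used the strand, and 0 columns were unassigned.

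Regions came from GENCODE M21 (GRCm38) in the order 3′UTR, CDS, 5′UTR, non-coding exon, intron, antisense, intergenic. Python 3.11.15, numpy 2.4.6, pandas 2.3.3, scipy 1.17.1, matplotlib 3.10.9 and blastn 2.17.0 (snRNA families) were used, and the call rule was tested on simulated data. Shares have Wilson, differences Newcombe and ratios exact conditional binomial intervals (95%), which leave out losses from short barcodes and variation between libraries. They also leave out the dependence between neighbouring sites of the same RNA. Motif backgrounds enumerate all positions of the bound 3′UTRs. Genes named were the first 10 by cDNAs in each list, the 10 largest 3′UTR ratios in each direction (5 elsewhere), members of the gene lists and the targets the study listed at 1 h; 1 of these genes is not reported here. Others, including the tRNA, snRNA and Y RNA classes, were chosen after their values were seen. Members and lists were chosen with earlier results of these data known.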

Additional observations from a re-analysis of the deposited data

How the results depend on the processing

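No paired analysis was possible because each list is a sum over its 2 libraries, and for the same reason no replicate could be left out. Several alternatives, among them those for Y RNA, U6, AAUAAA and the gene lists, were chosen after seeing the data. Of 126 values recomputed for whole comparisons, 68 stayed within the limit set for them, 54 moved and 4 reversed, and the causes were not tested. Of 213 values for single genes, 152 stayed, 61 moved in size, and no called gene changed direction.

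The 3′UTR difference of 5.40 points was 4.50 over sites with at least 2 cDNAs, 4.08 without histones, 4.32 without the 10 leading genes, 1.85 over mRNA regions alone and 7.26 outside the chromosome 17 locus, tRNA, small RNA and non-coding exons. Without that locus, non-coding exons reversed to 0.233, and introns stood at -2.74, antisense at 0.246 and intergenic at -3.21. With each site counted once, non-coding exons gave -1.50 and introns -2.74, and with at most 10 cDNAs per site -1.27 and -2.61. The ratio of site numbers (1.02) reversed to 0.974 over sites with at least 2 cDNAs and to 0.993 over merged sites. The ratio of cDNAs (0.971) was 0.936 over sites with at least 2 cDNAs and reversed to 1.01 without the locus.

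The 123 called 3′UTR genes became 36 at 4-fold, 226 from 5 cDNAs, 43 from 20 cDNAs, 78 with each site counted once and 51 over sites with at least 2 cDNAs, and no call changed direction in these. The 71 intronic calls became 12, 127, 21, 21 and 39 in the same order. The 6 CDS calls became 1, 15, 1 and 1 under the first 4, and the 73 non-coding calls 26 at 4-fold and 24 with each site counted once. Over lists with each site counted once, p53 targets had 0 calls, actin 4 and histones 2, Y RNA a ratio of 1.18 and U6 0.493.

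The overlap of TTP genes was 36.9% over sites with at least 2 cDNAs, 68.1% from 5 cDNAs in the TTP list and 51.3% from 5 in each, and that of TTP-AA genes 30.9% and 54.0% for the first 2. Position overlap was 16.3% of TTP and 12.6% of TTP-AA sites at the same nucleotide, 36.3% and 30.0% within 5 nt, 46.8% and 43.2% within 50 nt, 69.9% and 69.0% in shared 3′UTRs, and 38.8% of TTP-AA sites with at least 2 cDNAs. The AUUUA difference was -18.5 points over sites with at least 2 cDNAs, -5.12 in shared 3′UTRs and -8.97 for UAUUUAU. The AAUAAA difference was 2.79 in shared 3′UTRs and 2.45 within 10 nt, and the difference at the 3′ end was 6.29 in the last 50 nt. At a median of 4 cDNAs per gene, differences in most single genes were not detectable at this depth.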
